A study of Mus musculus with 3 samples.

Results

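Havcr1, Timd2, Spp1, Cd44, Vcam1 and Clu are 6 genes used to mark injured kidney tubules, and they were taken by name from the 22535 genes counted over the series. Their unique molecular identifiers (UMIs, the tags that count single mRNA molecules) were read in single cells of mouse kidney cortex in 3 libraries. All mice were adult WT1CreERT2; Rosa26-tdTfl/+ animals treated with tamoxifen, in which a Cre recombinase inserted at the WT1 locus switches on the red reporter tdT in podocytes and in part of the parietal epithelial cells (PECs) of Bowman's capsule. The Sham library came from sham-operated mice and held a renal cell mixture enriched by sorting for tdT+ cells. The IRI24h-TDN library held tdT+ and tdT- cells mixed 2:1 from mice with severe ischemia-reperfusion injury (IRI) of both kidneys, taken after 24 h. The IRI24h-TD library, of the same time, was sorted for tdT+ cells, with no tdT- cells added. Each condition is 1 library made from several kidneys, so no difference below could be checked against replicates or tested. Every interval is a 95% interval for counting error alone.

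The 6 genes stand for different parts of the tubular injury response. Havcr1 encodes kidney injury molecule 1, a receptor of the TIM family that binds phosphatidylserine on dying cells and that the proximal tubule makes after injury, and Timd2 encodes a mouse TIM family receptor for H-ferritin. Spp1 encodes osteopontin, a secreted ligand of integrins and of the hyaluronan receptor that Cd44 encodes. Vcam1 encodes an adhesion molecule bound by integrins of leukocytes, and Clu encodes clusterin, a secreted chaperone long used as a marker of tubular damage.

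Havcr1 (ENSMUSG00000040405) and Timd2 (ENSMUSG00000040413) are neighbours on mouse chromosome 11. In GENCODE M21 on GRCm38, Havcr1 spans chr11:46735080-46779578 on the plus strand and Timd2 spans chr11:46668960-46707061 on the minus strand, 28018 bases apart and pointing away from each other. Spp1 (ENSMUSG00000029304) lies at chr5:104435118-104441050 on the plus strand and Cd44 (ENSMUSG00000005087) at chr2:102811141-102901665 on the minus strand. Vcam1 (ENSMUSG00000027962) lies at chr3:116109949-116129688 on the minus strand and Clu (ENSMUSG00000022037) at chr14:65968483-65981547 on the plus strand. All 6 are protein-coding genes.

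RefSeq promoter sequence (GRCm38.p6) was matched for 4 of the 6 genes. It is shown for Havcr1 and Timd2, whose levels went together over the cell groups, and for Spp1, which was higher after IRI in every group compared. Each sequence is the stretch before the listed start that lies farthest upstream, read 5′ to 3′ on the gene's strand. For Havcr1 it is chr11:46739973-46740060 (plus), where the last 162 of the 250 bases before the start are left out because GENCODE has an exon there. This stretch lies inside the GENCODE span of Havcr1, downstream of its first base at 46735080. For Timd2 it is chr11:46707105-46707354 (minus) and for Spp1 chr5:104434861-104435110 (plus), 250 bases each. Capitals mark the motifs found.
Havcr1: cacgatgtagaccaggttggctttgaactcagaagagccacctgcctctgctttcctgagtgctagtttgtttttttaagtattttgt
Timd2: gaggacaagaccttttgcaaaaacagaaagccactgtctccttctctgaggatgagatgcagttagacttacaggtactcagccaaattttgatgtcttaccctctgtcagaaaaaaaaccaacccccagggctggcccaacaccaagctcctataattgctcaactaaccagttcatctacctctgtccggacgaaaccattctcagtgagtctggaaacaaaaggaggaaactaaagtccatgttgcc
Spp1: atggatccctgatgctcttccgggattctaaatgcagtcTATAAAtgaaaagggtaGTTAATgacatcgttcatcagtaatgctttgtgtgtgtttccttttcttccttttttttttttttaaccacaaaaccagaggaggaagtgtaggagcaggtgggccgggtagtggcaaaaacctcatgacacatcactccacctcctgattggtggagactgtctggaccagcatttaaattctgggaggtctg

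The 250 bases before each start (for Havcr1 also the 162 not printed) were searched on both strands for the AP-1 motif TGANTCA, the STAT motif TTCNNNGAA, the TATA box TATAAA and the HNF1 half-site GTTAAT. These letters were held by 6.75%, 7.02%, 12.4% and 6.43% of the 32851 RefSeq promoter windows of this length. The Spp1 window held TATAAA at 211 to 206 and GTTAAT at 194 to 189 bases before the start. The windows of Havcr1 and Timd2 held none of the 4 motifs. Since the Havcr1 window lies inside the gene, the sequence before its GENCODE start was not searched.

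In all, 26760 of 30008 barcodes passed the limits of at least 200 genes and at most 50% mitochondrial UMIs, and the median cell held 7746 (Sham), 9151 (IRI24h-TDN) or 9529 (IRI24h-TD) UMIs. Between 82 and 96 of the kept barcodes were shared by any pair of libraries. Cells were clustered without the 6 markers, and clusters were named from marker lists, always as "-like". Clusters with genes of both PECs and proximal tubular epithelial cells (PTECs) form the PEC/PTEC mixed group, and 1 cluster with podocyte and PEC genes forms the podocyte/PEC mixed group. PTEC-like cells numbered 894 in Sham, against 110 in IRI24h-TDN and 55 for IRI24h-TD, and podocyte-like cells 4382, 5204 and 8515. IRI24h-TD also held 96 ascending limb-like, 28 connecting tubule and principal-like and 14 monocytic-like cells. Whether the tubular and monocytic-like cells of IRI24h-TD carried tdT or passed the sort without it was not tested. The summed PTEC marker list in PTEC-like cells was at 29103 CPM in Sham, against 9167 in IRI24h-TDN and 9183 for IRI24h-TD. The ascending limb list in ascending limb-like cells was at 22483, 4667 and 2297 CPM. The part of these lower marker levels in the results was not tested.

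For each cell group, the UMIs of a gene were summed over its cells in a library and given relative to all UMIs of those cells (CPM). IRI24h-TDN was set against Sham in 13 groups with at least 30 cells in both, for genes with at least 10 UMIs over both libraries, and a gene was counted as higher or lower when it differed at least 2-fold. Of the 78 pairs of marker and group, 40 were higher in IRI24h-TDN, 2 were lower, 15 were within 2-fold, 4 could not be resolved because Sham had no UMI, and 17 had under 10 UMIs.

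In PTEC-like cells all 6 markers were higher and none was lower, where 16.2% of all genes tested were higher and 15% lower. In the PEC/PTEC mixed group 4 markers were higher and none lower (9.47% and 15.9% of all genes). In PEC-like cells 1 was higher, namely Spp1, and none lower (5.36% and 10.9%). Along the distal nephron, 4 markers were higher in ascending limb-like cells (10.2% of all genes), 2 in distal convoluted tubule-like cells (11%), 2 in connecting tubule and principal-like cells (11.4%) and 5 in intercalated-like cells (9.87%). None was lower in these 4 classes, where 12.1%, 13.3%, 9.13% and 7.46% of all genes were. The pair higher in both distal convoluted tubule-like and connecting tubule and principal-like cells was Spp1 and Clu.

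Outside the tubule, 3 markers were higher in podocyte-like cells (6.20% of all genes), 3 in fibroblast-like cells (11.9%), 3 in endothelial-like cells (8.30%) and 4 in monocytic-like cells (14.7%). None was lower in these 4 classes, where 11.9%, 21.5%, 14.2% and 8.92% of all genes were. In mesangial and smooth muscle-like cells 2 were higher (6.43%) and 1 was lower (7.42%). In the podocyte/PEC mixed group 1 was higher (4.46%) and 1 was lower (10.6%). The lower marker was Vcam1 in both.

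**Figure D1:**
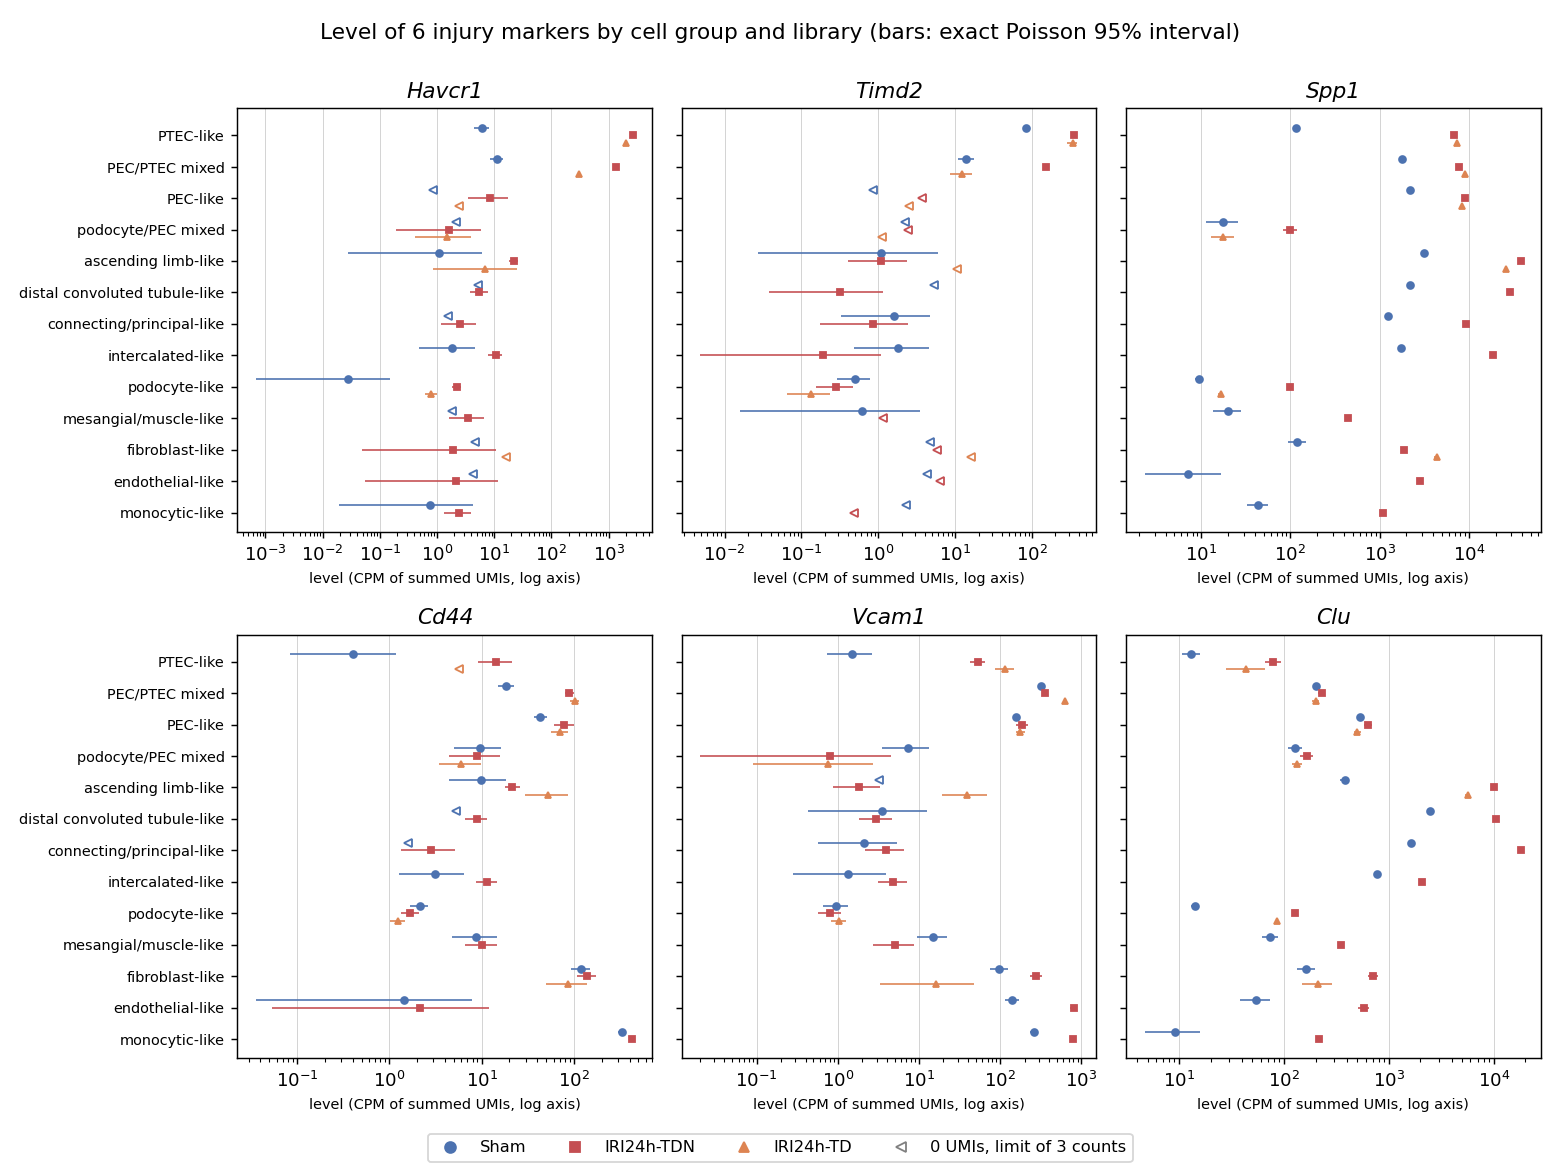
Level of each injury marker (CPM of summed UMIs, log axis) in 13 cell groups of Sham (blue circles), IRI24h-TDN (red squares) and, where a group has at least 30 cells, IRI24h-TD (orange triangles). Bars are exact Poisson 95% intervals and open triangles mark 0 UMIs at the limit of 3 counts. Havcr1 and Timd2 are highest in PTEC-like cells after IRI, Spp1 lies to the right of Sham in all 13 groups, and Clu is highest in connecting tubule and principal-like cells.

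Havcr1 was almost at zero in Sham and was carried by PTEC-like and PEC/PTEC mixed cells after IRI. In PTEC-like cells its level was 6.17 CPM in Sham (46 UMIs), against 2634 in IRI24h-TDN (4391 UMIs) and 2013 for IRI24h-TD (1062 UMIs). IRI24h-TDN was thus 427-fold higher than Sham (320 to 584). A Havcr1 UMI was present in 3.69% of PTEC-like cells in Sham, against 77.3% in IRI24h-TDN and 50.9% for IRI24h-TD. Thinned to 2400 UMIs per cell, the shares were 1.10%, 68.9% and 50%. Podocyte-like cells, which are not tubular, held a Havcr1 UMI in 0.0228%, 1.90% and 0.740% of cells at median depths of 8240.5, 9333.5 and 9671 UMIs, against 7100.5, 12382.5 and 1906 in PTEC-like cells. The share in PTEC-like cells after IRI was therefore far above that in podocyte-like cells.

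In the PEC/PTEC mixed group Havcr1 was at 11.2 CPM in Sham, against 1345 in IRI24h-TDN and 310 for IRI24h-TD, which made IRI24h-TDN 120-fold higher (93.0 to 159). Of the 58 Sham UMIs, 94.8% sat in 1 cell. Its subclusters differed in level after IRI. Subcluster 6, led by Krt20 and Gsta2, had no Havcr1 UMI in 160 Sham cells and 3507 in 70 IRI24h-TDN cells, 2592 CPM, which is at least 463-fold higher than the limit of 3 counts. Its Sham cells held far fewer UMIs per cell on average than its IRI24h-TDN cells (median 3111.5 over the libraries together). For this and the later ratios of subcluster 6, whether both libraries gave the same kind of cell was not tested. Subcluster 1, led by Gc, C3 and Sox9, was at 16.9 CPM in Sham and 240 in IRI24h-TDN, and 1 cell held 55 of its 57 Sham UMIs, so no fold is given. Subcluster 9, led by Slc10a2, went from 1 UMI to 280 UMIs (0.896 to 817 CPM; 913-fold, 162 to 36174), and all 10 podocyte markers were also found in it. Subcluster 10, led by the cell-cycle genes Top2a and Mki67, had 13 Sham cells with no Havcr1 UMI and 28 IRI24h-TDN cells at 1022 CPM, too few for a fold.

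Within PTEC-like cells the level of Havcr1 after IRI differed among subclusters. Subcluster 2, led by Slc7a13 and Slc17a3, went from 8.08 to 2769 CPM (343-fold, 240 to 509). Subcluster 4, led by Kap and Cyp4a12a, went from 8.03 to 3953 CPM (492-fold, 249.2 to 1143). Subcluster 7, with Snhg11, Cyp2d26 and Slc6a19 among its leading genes, had 2 UMIs in 156 Sham cells and 33 in 17 IRI24h-TDN cells, 1.90 and 163 CPM (85.7-fold, 21.9 to 737). After IRI, Havcr1 in subcluster 7 was thus below its level in subclusters 2 and 4, in 17 cells. The genes of the S1 and S2 segments were summed at 4567 CPM and those of S3 at 272 CPM in subcluster 7, and at 3507 and 2578 CPM in subcluster 2, so that subcluster 2 held genes of both.

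PEC-like cells carried almost no Havcr1, with 0 UMIs in Sham, against 7 in IRI24h-TDN and 0 for IRI24h-TD. The 231 Sham and 55 IRI24h-TDN cells of the Clstn2-led PEC-like subcluster 3 had none at all. In the distal nephron Havcr1 was low, at 1.08, 22.2 and 7.03 CPM in ascending limb-like cells of the 3 libraries and at 1.79 CPM in Sham and 10.5 in IRI24h-TDN in intercalated-like cells. The ratio was 20.5 (3.62 to 818) in ascending limb-like cells, which rests on 1 Sham UMI, and 1 cell held 35.0% of the IRI24h-TDN UMIs. It was 5.88 (2.17 to 22.3) in intercalated-like cells, where 1 cell held 67.3%. Podocyte-like cells went from 1 UMI to 109 (0.0272 to 2.19 CPM), and monocytic-like cells from 1 to 15, with an interval of the ratio from 0.487 to 133 that includes no change. All these levels lay far below those of PTEC-like cells.

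Timd2 was carried by the same groups of cells. PTEC-like cells already held it in Sham, at 81.9 CPM, and reached 352 CPM in IRI24h-TDN and 334 in IRI24h-TD. IRI24h-TDN was 4.29-fold higher (3.83 to 4.82). The share of PTEC-like cells with a Timd2 UMI was 36.9% in Sham, against 70.0% in IRI24h-TDN and 36.4% for IRI24h-TD, and 14.9%, 46.6% and 38.5% after thinning. In the PEC/PTEC mixed group Timd2 was at 13.7, 150 and 12.1 CPM, 11-fold higher in IRI24h-TDN than in Sham (8.56 to 14.3), so that the tdT+ library was near Sham and the mixture was not.

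The Krt20-led subcluster 6 held most of that gain, from 16.8 to 303 CPM (18.0-fold, 9.41 to 39.7). Among PTEC-like subclusters, Timd2 went from 97.2 to 419 CPM in the Slc7a13-led subcluster 2 (4.31-fold, 3.75 to 4.97) and from 65.2 to 320 in subcluster 4 (4.91-fold, 3.57 to 6.79). In the Snhg11-led subcluster 7 it was 68.4 CPM in Sham and 59.3 in IRI24h-TDN, with an interval of the ratio from 0.428 to 1.61. PEC-like and podocyte/PEC mixed cells had no Timd2 UMI in any of the 3 libraries. Podocyte-like cells had 0.490 CPM in Sham, against 0.282 in IRI24h-TDN and 0.131 for IRI24h-TD, and 10 of the 13 groups had under 10 UMIs over Sham and IRI24h-TDN.

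**Figure D2:**
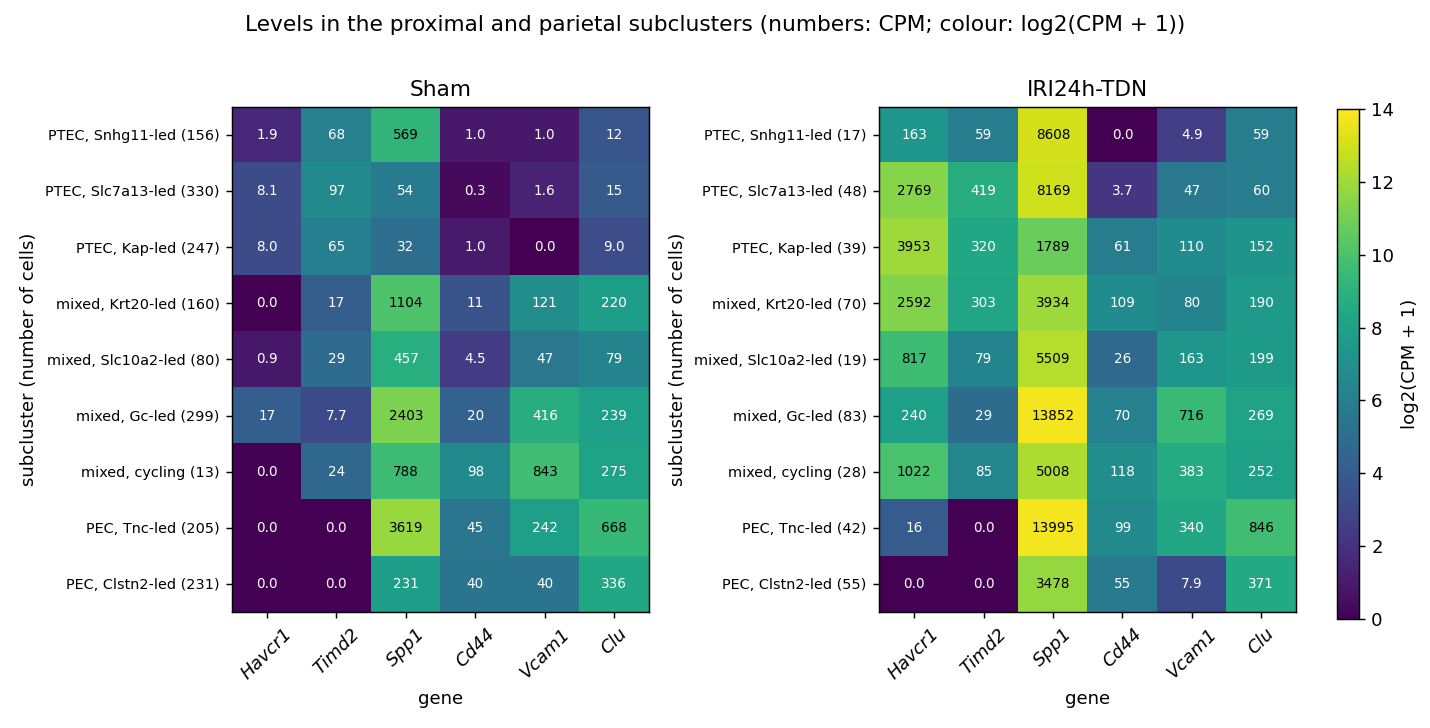
Level of the 6 markers (numbers in CPM, colour as log2(CPM + 1)) in the PTEC-like, PEC/PTEC mixed and PEC-like subclusters of Sham (left) and IRI24h-TDN (right), with the number of cells in brackets. One PTEC-like subcluster with 6 IRI24h-TDN cells is left out. Havcr1 reaches 2769 CPM in the Slc7a13-led and 163 CPM in the Snhg11-led PTEC-like subcluster after IRI, Timd2 is at 0 in both PEC-like subclusters, and Spp1 reaches 13995 CPM in the Tnc-led PEC-like subcluster.

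Spp1, the ligand, was higher in IRI24h-TDN than in Sham in all 13 groups. The 2-fold call was lost in fibroblast-like cells at Leiden resolution 0.5 (log2 ratio 0.05) and in the podocyte/PEC mixed group with at least 500 genes per barcode (0.84). In ascending limb-like cells Spp1 was at 3156 CPM in Sham, against 39003.5 in IRI24h-TDN and 25914 for IRI24h-TD (12.4-fold, 11.9 to 12.8, IRI24h-TDN against Sham). In distal convoluted tubule-like cells it was at 2215, 29193 and 25182 CPM (13.2-fold, 12.5 to 13.9), the last value from 20 cells. The highest levels of Spp1 were thus in these 2 segments after IRI. One Sham cell held 36.4% of the Sham UMIs in the former and another 39.1% in the latter. In both Sham and IRI24h-TDN, 100% of ascending limb-like cells had a Spp1 UMI. Over the 3 libraries together the share was 93.8%, so it was lower in IRI24h-TD, whose ascending limb-like cells had a median of 1070.5 UMIs.

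In intercalated-like cells Spp1 was at 1727 CPM in Sham and 18494 in IRI24h-TDN (10.7-fold, 10.4 to 11.1). Most Sham cells of this class were in cluster 20, led by Aqp6 and Slc4a1 (type A genes), and most IRI24h-TDN cells in cluster 17, led by Slc26a4 (a type B gene). Spp1 went from 850 to 13854 CPM in cluster 20 (16.3-fold, 15.4 to 17.3) and from 3063 to 20673 in cluster 17 (6.75-fold, 6.49 to 7.02), so both clusters gained. In connecting tubule and principal-like cells it was at 1247 CPM in Sham and 9363 in IRI24h-TDN (7.51-fold, 7.20 to 7.83).

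PTEC-like cells had little Spp1 in Sham, 115 CPM, and 6837 in IRI24h-TDN and 7334 in IRI24h-TD, a gain of 59.4-fold (55.5 to 63.8). The share of PTEC-like cells with a Spp1 UMI was 24.4%, 93.6% and 94.5% in the 3 libraries. PEC-like cells were at 2198 CPM in Sham, against 9149 in IRI24h-TDN and 8426 for IRI24h-TD (4.16-fold, 4.03 to 4.30). In the Tnc-led PEC-like subcluster 5 Spp1 went from 3619 to 13995 CPM, and in the Clstn2-led subcluster 3 from 231 to 3478 CPM. Subcluster 5 was the higher of the pair in both libraries, while the ratio was 3.87 (3.74 to 4.0) there and 15 (13.3 to 17.0) in subcluster 3.

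In cells that are not tubular Spp1 also carried UMIs after IRI. Monocytic-like cells went from 42.9 to 1089 CPM (25.4-fold, 19.6 to 33.6). The Chil3- and Fn1-led cluster 21 had 1 Spp1 UMI in 37 Sham cells and 4368 UMIs in 214 IRI24h-TDN cells (8.36 and 2941 CPM), and the C1q-led cluster 8 went from 50.5 to 535 CPM. In endothelial-like cells it went from 7.12 to 2804 CPM, with 47.4% of the IRI24h-TDN UMIs in 1 cell, and in fibroblast-like cells from 119 to 1886 CPM, with 72% in 1 cell. Podocyte-like cells were at 9.42 CPM in Sham, against 99.1 in IRI24h-TDN and 16.4 for IRI24h-TD, and a Spp1 UMI was present in 7.19%, 50% and 13.5% of them (2.01%, 17.9% and 3.69% after thinning). Free RNA in the suspension can give such UMIs, and shares near those of podocyte-like cells cannot be told apart from that background.

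Clu was highest in the distal nephron too, with another order of segments. Connecting tubule and principal-like cells were at 1624 CPM in Sham, against 18316 in IRI24h-TDN and 17504 for IRI24h-TD, the last from 28 cells, and IRI24h-TDN was 11.3-fold higher (10.9 to 11.7). Distal convoluted tubule-like cells were at 2460, 10546 and 11636 CPM (4.29-fold, 4.07 to 4.52). Ascending limb-like cells were at 378, 10099 and 5628 CPM (26.7-fold, 24.1 to 29.8), and 46.0% of the Sham UMIs sat in 1 cell. In Sham the ascending limb-like level was thus the lowest of the 3, and after IRI it was close to that of distal convoluted tubule-like cells. A Clu UMI was present in 44.7% of ascending limb-like cells in Sham and 99.6% in IRI24h-TDN, or 28.6% and 97.6% after thinning.

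Intercalated-like cells were at 764 CPM of Clu in Sham and 2077 in IRI24h-TDN (2.72-fold, 2.58 to 2.86). Here the clusters differed, with 312 and 1954 CPM in the Aqp6- and Slc4a1-led cluster 20 (6.26-fold, 5.65 to 6.94) and 1454 and 2135 CPM in the Slc26a4-led cluster 17 (1.47-fold, 1.38 to 1.56). PTEC-like cells stayed low, at 13.0, 78.0 and 43.6 CPM in the 3 libraries, 6.0-fold higher in IRI24h-TDN than in Sham (4.58 to 7.88). Podocyte-like cells were at 14.1, 128 and 85.8 CPM. After thinning, a Clu UMI was present in 16.5% of PTEC-like and 22.8% of podocyte-like cells of IRI24h-TDN, so the share in PTEC-like cells was not above that in podocyte-like cells.

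In PEC-like cells Clu was within 2-fold in all 3 libraries, at 529, 627 and 499 CPM (IRI24h-TDN over Sham 1.19, 1.07 to 1.31). The PEC/PTEC mixed group was at 204, 228 and 200 CPM (1.12, 1.02 to 1.23) and the podocyte/PEC mixed group at 127, 165 and 133 CPM (1.30, 1.06 to 1.6). Spp1 in the same PEC-like cells was 4.16-fold higher, so the pair that moved together in the distal nephron did not move together there. Monocytic-like cells went from 9.04 to 214 CPM of Clu (23.7-fold, 13.5 to 46.0) and endothelial-like cells from 54.1 to 576 CPM (10.7-fold, 7.56 to 15.4). Podocyte-like cells went from 14.1 to 128 CPM between the same libraries. Over the 3 libraries together, a Clu UMI was present in 24.5% of monocytic-like, 17.2% of endothelial-like and 36.4% of podocyte-like cells. The first 2 shares were not above that of podocyte-like cells, and the part of free RNA in these gains was not tested.

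Cd44, the receptor, was highest in monocytic-like cells among the 13 groups. They had 328 CPM in Sham and 423 in IRI24h-TDN (1.29-fold, 1.17 to 1.43). The Chil3- and Fn1-led cluster 21 was the higher of the monocytic-like clusters, at 1730 CPM in Sham and 1253 in IRI24h-TDN, against 199 and 183 in the C1q-led cluster 8. Cd44 was thus not higher after IRI in either cluster. Cluster 21 held 37 of the 295 Sham and 214 of the 932 IRI24h-TDN monocytic-like cells. The part of this shift in the ratio of all monocytic-like cells was not tested. Fibroblast-like cells came next of the 13 groups in Sham and IRI24h-TDN, at 119 and 138 CPM (1.16-fold, 0.826 to 1.62). PEC-like cells had 43.0 CPM in Sham, against 78.8 in IRI24h-TDN and 69.9 for IRI24h-TD (1.83-fold, 1.35 to 2.47), and a Cd44 UMI was present in 19.7%, 27.8% and 27.4% of them. Podocyte-like cells held one in 1.48%, 1.40% and 1.05% of cells at 2.12, 1.69 and 1.23 CPM.

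In the PEC/PTEC mixed group Cd44 was at 18.5 CPM in Sham, against 89.2 in IRI24h-TDN and 102 for IRI24h-TD (4.82-fold, 3.82 to 6.13). It was present in 8.15%, 39.0% and 41.9% of mixed cells, or 3.83%, 15.2% and 14.2% after thinning, so both IRI libraries lay above Sham. By subcluster, Cd44 went from 11.2 to 109 CPM in the Krt20-led subcluster 6 (9.76-fold, 4.38 to 27) and from 20.4 to 70.4 in the Gc-led subcluster 1 (3.44-fold, 2.47 to 4.80). PTEC-like cells had 3 Cd44 UMIs in Sham, against 24 in IRI24h-TDN and 0 for IRI24h-TD (0.402, 14.4 and 0 CPM). The ratio of 35.8 (10.9 to 186) rests on those counts, and 20 of the 24 UMIs were in the Kap-led subcluster 4. It also rests on few cells. Over the 3 libraries together, a Cd44 UMI was present in 0.850% of the 1059 PTEC-like cells and 1.57% of the 318 cells of subcluster 4. Ascending limb-like cells went from 9.72 to 21.5 CPM (2.21-fold, 1.13 to 4.95) and intercalated-like cells from 3.14 to 11.5 (3.66-fold, 1.67 to 9.50), both low against the monocytic-like level.

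Vcam1 was highest in PEC/PTEC mixed cells of Sham and in endothelial-like and monocytic-like cells of IRI24h-TDN. The PEC/PTEC mixed group was at 320 CPM in Sham, against 358 in IRI24h-TDN and 637 for IRI24h-TD, and IRI24h-TDN over Sham was 1.12 (1.04 to 1.20). By subcluster, Vcam1 was past 2-fold in the Slc10a2-led subcluster 9 alone of those compared, from 46.6 to 163 CPM (3.51-fold, 2.36 to 5.22). Subcluster 9 had 19 IRI24h-TDN cells, and all 10 podocyte markers were found in it. Vcam1 was 416 CPM in Sham and 716 in IRI24h-TDN in the Gc-led subcluster 1 (1.72-fold, 1.58 to 1.87). In the Krt20-led subcluster 6 it was 121 and 79.8 CPM, a ratio of 0.658 (0.479 to 0.909).

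PEC-like cells were at 157, 187 and 178 CPM of Vcam1 in the 3 libraries (IRI24h-TDN over Sham 1.19, 0.987 to 1.42). The Tnc-led subcluster 5 carried most of it, at 242 CPM in Sham and 340 in IRI24h-TDN, against 40.5 and 7.90 CPM in the Clstn2-led subcluster 3 (60 and 3 UMIs). PTEC-like cells had almost none in Sham, 1.47 CPM (11 UMIs), and 52.8 CPM in IRI24h-TDN (88 UMIs) and 114 in IRI24h-TD, where 1 cell held 70.0% of the UMIs. IRI24h-TDN was 35.8-fold higher than Sham (19.1 to 74.3), and a Vcam1 UMI was present in 1.12% of PTEC-like cells in Sham and 22.7% in IRI24h-TDN, against 0.707% and 0.692% of podocyte-like cells.

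Outside the epithelium, Vcam1 in monocytic-like cells was 259 CPM in Sham and 794 in IRI24h-TDN (3.07-fold, 2.75 to 3.43), and it was the C1q-led cluster 8 that carried it, at 294 and 1138 CPM, while the Chil3- and Fn1-led cluster 21 had 0 and 5.39 CPM. Vcam1 and Cd44 therefore peaked in different monocytic-like clusters. Endothelial-like cells went from 141 to 811 CPM (5.75-fold, 4.6 to 7.25), with 43.4% of the IRI24h-TDN UMIs in 1 of 100 cells. Fibroblast-like cells went from 97 to 275 CPM (2.84-fold, 2.09 to 3.89), and their own marker list went from 6910 to 32851 CPM between the same libraries. Vcam1 was lower in mesangial and smooth muscle-like cells, 14.8 CPM in Sham and 5.03 in IRI24h-TDN (2.95-fold lower, 1.44 to 6.31), and in the podocyte/PEC mixed group, 10 and 1 UMIs (9.10-fold lower, 1.29 to 395).

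The cells that held each marker's UMIs were counted over each library. These shares depend on how many cells of a kind were captured, and fewer cells of a kind and fewer UMIs per cell cannot be told apart in them. PTEC-like and PEC/PTEC mixed cells held 40.4% and 50.9% of the Havcr1 UMIs in Sham, 46.6% and 49.5% in IRI24h-TDN, and 49.4% and 46.6% in IRI24h-TD. The Sham share of mixed cells is 58 of 114 UMIs, and almost all of those 58 came from the same cell. PTEC-like cells held 85.9% of the Timd2 UMIs in Sham, against 51.7% in IRI24h-TDN and 77.2% for IRI24h-TD. Both TIM receptors were thus held by proximal and mixed cells in every library.

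For Spp1, PEC/PTEC mixed cells (32.3%) and PEC-like cells (26.9%) held the most UMIs in Sham, and ascending limb-like (35.9%), distal convoluted tubule-like (30.8%) and intercalated-like cells (16.0%) in IRI24h-TDN. In IRI24h-TD, mixed cells held 48.4%. For Clu, connecting tubule and principal-like cells held 29.2% in Sham, and distal convoluted tubule-like (31.3%), connecting tubule and principal-like (30.5%) and ascending limb-like cells (26.2%) held the most in IRI24h-TDN. In IRI24h-TD, where podocyte-like cells are 8515 of the 9689 cells, they held 40.7% of the Clu UMIs at a low level each. Monocytic-like cells held 72.7% of the Cd44 UMIs and 70.2% of the Vcam1 UMIs in IRI24h-TDN, while mixed cells held 54.4% and 81.7% in IRI24h-TD, which has 14 monocytic-like cells.

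**Figure D3:**
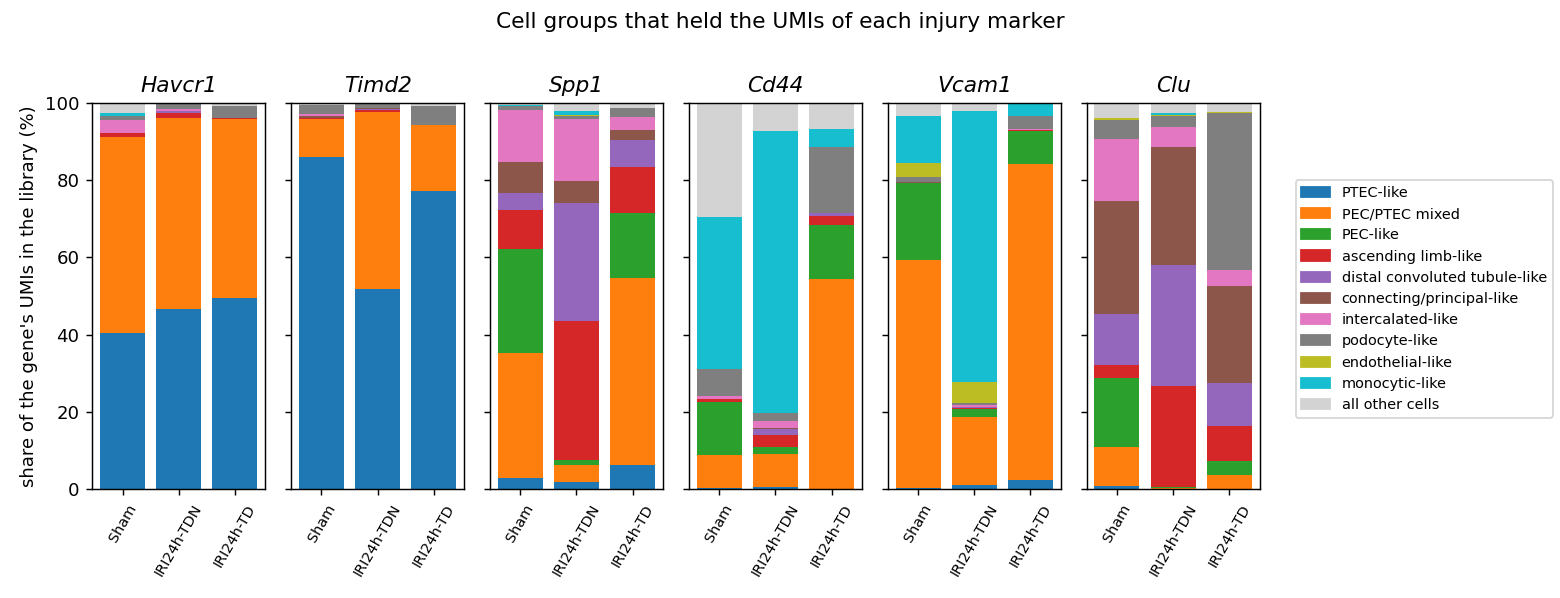
Share of each marker's UMIs (percent of the library's UMIs of that gene) held by each cell group in Sham, IRI24h-TDN and IRI24h-TD; each bar adds to 100% and light grey stands for all other cells. Havcr1 and Timd2 are held by PTEC-like and PEC/PTEC mixed cells in all 3 libraries, while for Spp1 ascending limb-like cells hold 35.9% in IRI24h-TDN against 10.1% in Sham.

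Markers were also read together in single cells thinned to 2400 UMIs. A PTEC-like cell held a mean of 0.334 of the 6 markers in Sham, against 2.30 in IRI24h-TDN and 2.08 for IRI24h-TD, and 3 or more markers were found in 0.122%, 39.8% and 30.8% of these cells. In podocyte-like cells the means were 0.0547, 0.421 and 0.204. In PTEC-like cells of IRI24h-TDN, Timd2 was found in 54.9% (42.7 to 66.8) of the 71 cells with Havcr1 and 28.1% (13.7 to 46.7) of the 32 without. The PTEC-like subclusters differed in the levels of both genes. Differences between subclusters and co-detection within them cannot be told apart here.

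In the PEC/PTEC mixed cells of IRI24h-TDN, Timd2 was found in 36.9% (25.3 to 49.8) of the 65 cells with Havcr1 and in 1.5% (0.183 to 5.33) of the 133 without. Vcam1 was found in 26.2% (16.0 to 38.5) of the cells with Havcr1 and in 48.9% (40.1 to 57.7) of those without. Vcam1 was found in 48.5% (40.7 to 56.3) of the 167 cells with Spp1 and in 3.23% (0.0816 to 16.7) of the 31 without. In the mixed cells of IRI24h-TD the values for Vcam1 did not lie in that order, since it was found in 62.5% (43.7 to 78.9) of the 32 cells with Havcr1 and 53.3% (45.8 to 60.8) of the 180 without. Timd2 was found there in 12.5% (3.51 to 29.0) of the cells with Havcr1 and in none of those without. The mixed group pools subclusters with different levels of these genes. Over the 3 libraries together, Havcr1 was at 1557 CPM in the Krt20-led subcluster 6 and 88.1 in the Gc-led subcluster 1. Vcam1 was at 152 and 594 CPM in the same subclusters. Differences between subclusters and co-detection within them cannot be told apart in these shares. In intercalated-like cells of IRI24h-TDN, Clu was found in 81.5% (77.1 to 85.4) of the 352 cells with Spp1 and in 25% (9.77 to 46.7) of the 24 without. These cells pool the Slc26a4-led and the Aqp6- and Slc4a1-led clusters, so the same limit applies.

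Genes known to act with the markers were read in the same cells. Fth1, the H-ferritin chain that Timd2 binds, was at 5752 CPM in Sham and 15104 in IRI24h-TDN in PTEC-like cells, a log2 ratio of 1.39, and Ftl1 was within 2-fold. Of the 14 integrin and hyaluronan genes listed as partners of Spp1, Cd44 and Vcam1, 9 were tested in PTEC-like cells. Itgb3 was higher by 4.33 on the log2 scale (0.268 to 5.40 CPM), Hyal1 changed by -2.76 and Itga9 by -1.54, and 6 were within 2-fold. The median log2 ratio of those 9 genes was 0.09, beside 0.07 over all 11798 genes tested, of which 16.2% were higher and 15% lower. In ascending limb-like cells Itgav, the integrin chain that binds osteopontin, had a log2 ratio of 1.13, from 332 to 728 CPM. Of the clusterin receptors, Lrp2 (megalin) had a log2 ratio of -2.31 and Lrp8 of 3.22 in PTEC-like cells.

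The other tubular injury genes were listed with earlier results of these data known. Of the 27, 21 of 24 tested were higher in PTEC-like cells and 1, Timp2, was lower (16.2% and 15% of all genes). Their median log2 ratio was 3.12. The largest log2 ratios were those of S100a6, a calcium-binding protein (8.88, from 3.35 to 1575 CPM), the keratin Krt20 (at least 8.84, from 0 to 185 CPM), Sprr1a (7.70), the AP-1 subunit Fosl1 (6.25), the chemokine Cxcl1 (5.18) and Anxa3 (4.93). S100a6 is no sign of tubular cells alone, since podocyte-like cells went from 6.94 to 1510 CPM. Krt20 stayed at 0.221 CPM in podocyte-like cells of IRI24h-TDN.

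In the other segments the same list gave 17 of 24 higher in ascending limb-like cells (median log2 ratio 1.97) and 11 of 25 in distal convoluted tubule-like cells (0.89). It gave 19 of 24 in connecting tubule and principal-like cells (1.97) and 17 of 26 in intercalated-like cells (1.43). None was lower in these segments. In the same order, 10.2%, 11%, 11.4% and 9.87% of all genes tested were higher, and 12.1%, 13.3%, 9.13% and 7.46% were lower. All medians include genes without Sham UMIs at their lower bound. In ascending limb-like cells Lcn2, which encodes lipocalin 2, went from 158 to 5368 CPM and in connecting tubule and principal-like cells from 82.9 to 2790. Sprr2f had a log2 ratio of 11.97 in connecting tubule and principal-like cells, from 1 UMI, 0.528 CPM, to 2117 CPM. PEC-like cells had 6 of 23 higher and 2 lower, Ccl2 and Cxcl1 (median 0.49), and podocyte-like cells 9 of 26 higher and 1 lower (median 0.64). Of all genes tested, 5.36% were higher and 10.9% lower in PEC-like cells, and 6.20% and 11.9% in podocyte-like cells.

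The proximal transport and metabolism genes went the other way in PTEC-like cells, where 10 of 14 were lower and none was higher (15% and 16.2% of all genes). Their median log2 ratio was -1.53. The largest were the lactate carrier Slc5a8 (-4.45, from 486 to 22.2 CPM), the gluconeogenic enzyme G6pc (-3.66) and Cyp2e1 (-2.87). The same genes were lower in 14 of 14 cases in podocyte-like cells (11.9% of all genes), where Cyp2e1 went from 10.6 to 0.141 CPM. The part of free RNA in the lower values was not tested.

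**Figure D4:**
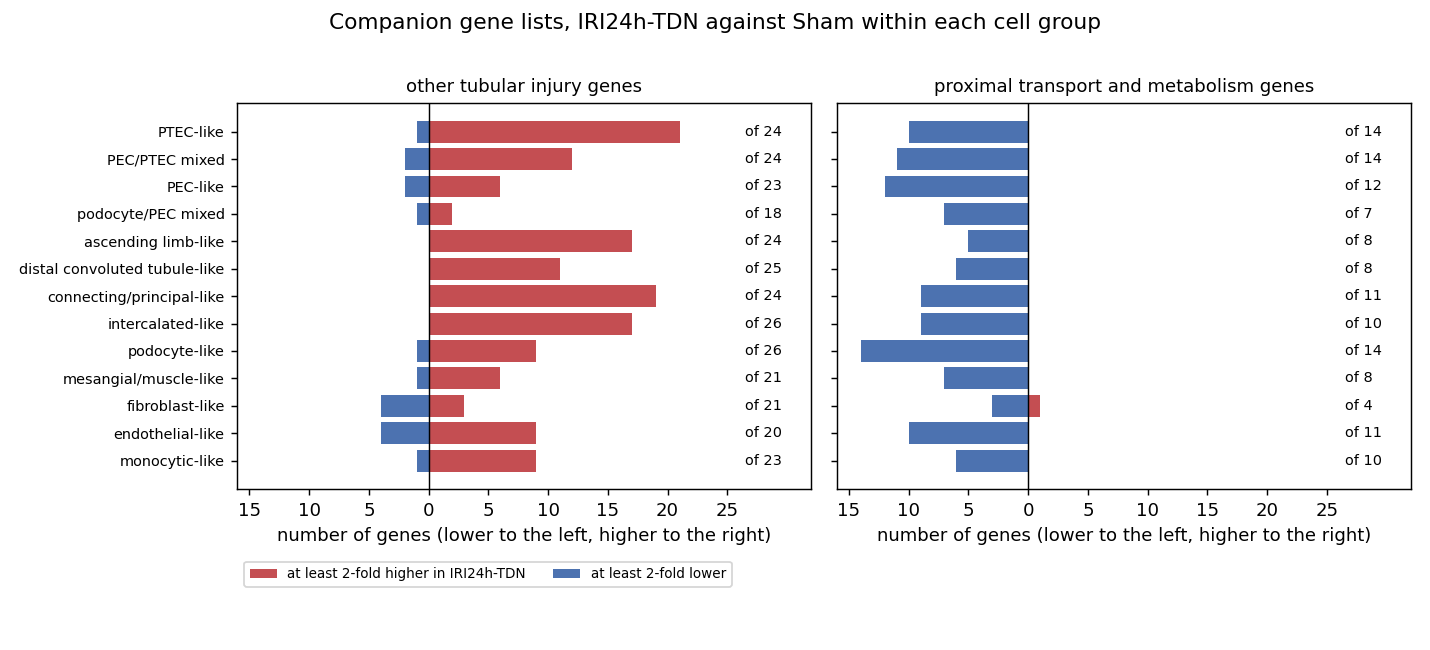
Number of genes of the other tubular injury list (left) and the proximal transport and metabolism list (right) that were at least 2-fold higher (red, to the right) or lower (blue, to the left) in IRI24h-TDN than in Sham, by cell group, with the number tested at the right. PTEC-like cells have 21 of 24 injury genes higher (16.2% of all genes tested) and 10 of 14 proximal genes lower (15%).

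The pattern of each marker over 33 sums of a cell group in a library was set beside that of all other genes as log2(CPM + 1). The sums share libraries and free RNA, and correlations over them are a description. Havcr1 and Timd2 had the highest Pearson correlation among the 15 marker pairs (0.85), followed by Spp1 and Clu (0.70) and Cd44 and Vcam1 (0.60), while Timd2 and Clu had the lowest (-0.30). The genes most like Havcr1 were Esd (0.91), Cyp24a1 (0.91) and Krt20 (0.89), and those most like Timd2 were Cyp2a5 (0.95), Cyp4a31 (0.95) and Apob (0.95). For Spp1 they were Eif3l (0.86), Wee1 (0.86) and Pgls (0.85), and for Clu Kctd1 (0.91), Mpnd (0.84) and Stk39 (0.83). For Cd44 they were Ncl (0.86), Tbl1xr1 (0.85) and Creb5 (0.84), and genes like Vcam1 included Mcm3 (0.88) and Rps3 (0.86).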

How the data were processed

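BD Rhapsody libraries of mouse kidney cortex were read from the deposited tables, in which the authors gave whole-number UMI counts per gene and barcode. The submitters' processing notes name CASAVA 1.8, UMI-tools, Seurat and mm10; their other settings are not given in the sources used here. Total counts were 69980443 (Sham), 92355554 (IRI24h-TDN) and 93470709 (IRI24h-TD). Barcodes with at least 200 genes and at most 50% mitochondrial UMIs were scaled to log counts and clustered on 2000 variable genes, without the 6 markers and the companion lists, with 30 principal components, a Harmony correction written in numpy (theta 2), 15 neighbours and Leiden resolution 1 (28 clusters). PEC- and PTEC-like clusters were clustered again at resolution 0.9 (11 subclusters).

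A cluster was named where at least 3 markers of a list were found in 25% of its cells and its leading genes did not go against the name. After the first clustering was seen, and before marker values were read, 1 Igha- and Igkc-led cluster lost its monocytic-like name and 1 subcluster became mixed. Doublet scores were used only in an alternative that removed the top 6% per library. Levels have exact Poisson intervals, shares exact Clopper-Pearson intervals and ratios exact conditional binomial intervals, all for counting error only. Where Sham had no UMI, the bound used 3 counts per sum. Limits of 30 cells per library for a group, 15 for a cluster ratio and 20 cells for co-detection were set in the analysis. Shares with a UMI were also given with cells thinned to 2400 UMIs, leaving out shallower cells (of PTEC-like cells, 821, 103 and 26 remained). The steps were tested on simulated data.

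From each companion list, up to 6 genes with the largest log2 ratios were named, and for each marker the 3 genes with the most similar pattern among genes reaching 50 CPM in a sum. For Vcam1, 1 of these genes is not reported here. Tff3 was not found in the tables. The markers and lists were chosen with earlier results of these data known. Tools were Python 3.11.15, numpy 2.4.6, scipy 1.17.1, pandas 2.3.3, scikit-learn 1.9.0, igraph 0.11.9, leidenalg 0.10.2, R 4.3.3 and edgeR 4.0.16 (TMM factors only).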

Additional observations from a re-analysis of the deposited data

Results flagged for a closer look

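The barcodes left out for having under 200 genes also held the markers. In IRI24h-TDN, 444 such barcodes had 10.8 CPM of Havcr1 (14 UMIs), against 0.338 CPM in the 1547 of Sham (1 UMI). Spp1 was at 658 CPM against 17.6, and Clu at 280 CPM against 7.43. Of all UMIs in these barcodes, 95.8% in IRI24h-TDN and 95.4% in Sham were mitochondrial, and scaled to the UMIs that are neither mitochondrial nor hemoglobin, Spp1 was at 15653 CPM in IRI24h-TDN and 409.8 CPM in Sham.

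Vcam1 went down in 2 groups while it was higher in 5 others. Its log2 ratio of IRI24h-TDN over Sham was -3.19 in the podocyte/PEC mixed group and -1.56 in mesangial and smooth muscle-like cells, against 5.16 in PTEC-like cells. The difference between the groups was not tested, since each condition is 1 library.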

How the results depend on the processing

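The 42 differences of at least 2-fold were computed again under up to 13 alternatives each (525 values in all). The sign was kept in 523 and the 2-fold call in 506, and 34 of the 42 kept the call in all their alternatives. Both reversals were of Vcam1 at Leiden resolution 0.5, with a log2 ratio of -0.10 in fibroblast-like cells and 0.30 in the podocyte/PEC mixed group. Cd44 in ascending limb-like cells kept its call in 7 of 13 alternatives (log2 ratio 0.59 to 1.45), and Havcr1 in monocytic-like cells in 7 of 12. Some ratios that kept their call varied in size far beyond their counting intervals. The log2 ratio of Clu in ascending limb-like cells was 4.74 and ranged from 2.11 to 5.28 over the alternatives. In the PEC/PTEC mixed group that of Timd2 was 3.46 (1.19 to 4.46) and that of Havcr1 6.91 (5.20 to 11.77). TMM factors moved the log2 ratios of a group by at most 0.20 (monocytic-like cells -0.20, fibroblast-like cells 0.17).

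Without the Harmony correction 10 groups could be compared, PTEC-like cells were not among them, and Timd2 was higher in 1 group and Cd44 in 2. At 1.5-fold Cd44 was higher in 7 groups. The group with the highest level in IRI24h-TD was the same for 3 of 6 markers without the top doublet scores, for 1 without Harmony and for 3 with 4000 variable genes. The group with the highest share of cells with a UMI was the same for 2 of 6 in IRI24h-TDN and 1 in IRI24h-TD without Harmony, for 2 and 1 with 4000 variable genes, and for 3 in IRI24h-TD after thinning. Under the first naming rule, an alternative chosen after seeing the data, the group holding most UMIs in Sham was the same for 3 of 6. Without thinning, Timd2 in mixed cells of IRI24h-TDN was 49.9 percentage points more frequent with Havcr1 than without. The cause of these changes was not tested. Leaving out the 4 clusters outside the podocyte groups with all 10 podocyte markers (353 cells), also chosen after seeing the data, reversed no difference.

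No paired analysis was possible because each condition is 1 library with no replicates. Some groups were small, such as PTEC-like cells of IRI24h-TD (55), and depth limits what can be said of genes with few UMIs.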
